A study of Mus musculus with 15 samples.

Results

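The thrombospondins (Thbs1, Thbs2, Thbs3, Thbs4 and Comp), the tenascins Tnc and Tnxb, periostin (Postn), and SPARC with its relative SPARC-like 1 (Sparc and Sparcl1) are secreted matricellular proteins. These 10 genes were taken from these families with earlier results of these data known, and other members of the families are left out. All 10 were measured among the 18718 genes tested. Each was read by a single set of pooled probes (a transcript cluster) annotated to no other gene symbol. The study profiled mesenchymal cells, all gated on PDGFRβ, from the thymus and from pooled inguinal, brachial and axillary lymph nodes of C57BL/6 mice aged 2 weeks. Podoplanin (PDPN), BP3 (the product of Bst1) and Ly51 (the product of Enpep) divided them into 5 populations with 3 arrays each. These were lymph node PDPN+BP3+, lymph node PDPN+BP3-, thymus PDPN+BP3-, lymph node PDPN- and thymus PDPN- cells, and the PDPN- gates also required Ly51. No allele, agent or treatment is given for any population. The labels describe 3 individual experiments, with cells pooled from 3 mice for each thymus sample and from 10 to 11 mice for each lymph node sample, so tissue and pool size cannot be told apart. All tissue was digested with liberase TM and DNase I, and the RNA was amplified before hybridisation to Affymetrix Mouse Gene 1.1 ST arrays.

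Matricellular proteins are secreted into the extracellular matrix but do not build its fibres. They bind collagens, growth factors and cell surface receptors such as integrins, CD36 and CD47, and they are known for changing how cells attach to and read their matrix. In lymphoid organs, PDPN+ fibroblasts lay down the fibrous scaffold along which lymphocytes move, and PDPN- perivascular cells surround the vessels. BP3 marks a subset of the lymph node fibroblasts.

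All values below are log2 signals after RMA (robust multi-array average), which corrects background, normalises arrays to a common distribution and summarises the probes of a gene. The table's median was 3.8 and its values ran from 1.07 to 12.07. Signals of different genes come from different probes, so levels are compared between populations and not between genes. Differences are on the log2 scale with their SE from limma, and adjusted p-values are Benjamini-Hochberg values over all 18718 genes, with 0.05 as the threshold.

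Promoter windows are shown for 4 of the genes that had a window at hand, picked for a contrast in the results. Thbs4 and Tnc were highest in lymph node PDPN+BP3+ cells. Thbs3 and Tnxb were lower there than in lymph node PDPN+BP3- cells and followed each other across the populations. Sparcl1, whose group means spanned the most, had no window at hand. Each window is RefSeq sequence (GRCm38.p6), 5′ to 3′ on the gene's strand, covering 250 bases before and 50 after an annotated start. They lie at chr13:92794769-92795068 (minus strand) for Thbs4, chr4:64046966-64047265 (minus) for the first Tnc start, chr3:89214930-89215229 (plus) for Thbs3 and chr17:34670285-34670584 (plus) for Tnxb. Capitals mark matches, on either strand, to TATAAA (named the TATA box), GGGCGG (named the GC box), CCAAT (which names its box) or TGANTCA (the AP-1 site), and no match shown overlaps another.
Thbs4: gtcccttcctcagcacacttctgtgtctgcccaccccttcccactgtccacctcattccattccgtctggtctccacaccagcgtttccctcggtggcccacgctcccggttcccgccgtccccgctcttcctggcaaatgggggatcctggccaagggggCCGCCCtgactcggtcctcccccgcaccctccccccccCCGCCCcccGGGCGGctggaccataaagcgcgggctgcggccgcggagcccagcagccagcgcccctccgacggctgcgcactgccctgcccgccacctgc
Tnc: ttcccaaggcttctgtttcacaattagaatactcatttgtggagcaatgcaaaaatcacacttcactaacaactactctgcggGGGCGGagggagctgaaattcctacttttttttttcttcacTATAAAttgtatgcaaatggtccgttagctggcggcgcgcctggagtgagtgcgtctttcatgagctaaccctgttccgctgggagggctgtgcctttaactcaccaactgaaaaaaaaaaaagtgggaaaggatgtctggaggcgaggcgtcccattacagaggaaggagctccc
Thbs3: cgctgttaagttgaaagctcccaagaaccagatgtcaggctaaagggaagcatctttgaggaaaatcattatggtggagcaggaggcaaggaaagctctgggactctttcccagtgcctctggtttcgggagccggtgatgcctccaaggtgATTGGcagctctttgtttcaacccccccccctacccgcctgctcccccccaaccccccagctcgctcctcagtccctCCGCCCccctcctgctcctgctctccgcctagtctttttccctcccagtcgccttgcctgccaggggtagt
Tnxb: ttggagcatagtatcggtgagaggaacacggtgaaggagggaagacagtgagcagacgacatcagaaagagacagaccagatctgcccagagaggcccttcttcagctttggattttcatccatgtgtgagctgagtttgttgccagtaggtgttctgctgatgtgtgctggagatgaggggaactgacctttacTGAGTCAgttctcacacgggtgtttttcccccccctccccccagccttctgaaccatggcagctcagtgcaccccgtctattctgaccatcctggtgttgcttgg

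The Thbs4 window held 3 GC boxes, at -89, -51 and -42 from the start, and 72% of its bases were G or C. The Tnc window shown held a TATA box at -126 and a GC box at -167, with 47.3% G or C. Counted from a second annotated Tnc start, these matches lay at -205 and -246, in a window with 54% G or C. The Thbs3 window held a CCAAT box at -98 and a GC box at -21, and the Tnxb window held an AP-1 site at -55. Among 32851 mouse promoter windows of the same length, GC boxes occurred in 35.7%, CCAAT boxes in 37.4%, TATA boxes in 13.6% and AP-1 sites in 7.81%, and the median G or C content was 52.7%. These are matches to the exact letters only, and variants of the letters were not sought, in the second Tnc window or elsewhere. Thbs3 and Tnxb, whose levels followed each other, shared none of the 4 motifs in these windows. Windows were at hand for 7 of the 10 genes and not for Thbs1, Comp and Sparcl1.

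The genes behind the sort followed their labels. Bst1 averaged 8.74 in lymph node PDPN+BP3+ cells, against 3.30 in PDPN+BP3- cells of the same nodes, and 2.18 to 2.41 elsewhere. Pdpn averaged 8.16 to 9.11 in the PDPN+ populations, against 3.01 to 3.41 in the PDPN- populations, and Enpep averaged 3.74 to 4.61 against 7.69 to 8.07. Pdgfrb averaged at least 8.94 in every population. Markers of other cells were not level: the mean of 6 T lineage genes was 3.38 to 4.91 in thymus PDPN+BP3- arrays and 4.86 to 5.57 in thymus PDPN- arrays, against 2.68 to 2.93 in the 9 lymph node arrays. The mean of 7 epithelial genes was 3.61 to 4.78 on the thymus arrays, against 2.74 to 2.97 on the lymph node arrays. The mean of 8 endothelial genes was 4.02 to 4.45 in lymph node PDPN+BP3- and 4.16 to 4.29 in thymus PDPN- arrays. It was 3.75 to 4.34 in lymph node PDPN- arrays and 3.14 to 3.51 in the other populations. These means had different makeups. In lymph node PDPN+BP3- cells 5 of the 8 lay above the table's median, with Pecam1 and Cdh5 at 5.36 each. In thymus PDPN- cells 2 did, Emcn (7.72) and Esam (8.40), while Pecam1 averaged 3.32 and Cdh5 2.81. The mean of 8 general fibroblast markers was 7.28 to 7.48 in lymph node PDPN+BP3+, 9.45 to 9.66 in lymph node PDPN+BP3-, 9.94 to 10.14 in thymus PDPN+BP3-, 6.66 to 6.73 in lymph node PDPN- and 5.38 to 5.58 in thymus PDPN- arrays. The mean of 10 pericyte and smooth muscle markers was 7.06 to 7.17, 6.29 to 6.70 and 5.77 to 5.89 in the same PDPN+ populations, against 9.10 to 9.39 in the PDPN- arrays. Thymus PDPN+BP3- replicate 1 stood apart, with a median signal of 3.58, where the other 14 arrays had 3.77 to 3.89, and a T lineage mean of 3.38 against 4.82 and 4.91 in its partners. Leaving it out changed no call of the 10 genes, and the Thbs4 difference between the thymus populations was then 4.22. In sorted bulk samples, fewer cells of a type and less RNA per cell cannot be told apart.

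The genes of the group fell into distinct patterns across the 5 populations. Sparcl1 and Thbs4 varied most, with group means spanning 6.24 and 5.81 log2 units. Thbs3, Tnxb, Thbs2 and Tnc spanned 3.08 to 3.78, Thbs1 2.13 and Postn 1.17. Sparc and Comp were nearly level, with spans of 0.25 and 0.28. Of the 70 tests of a gene in one of 7 pairwise comparisons, 40 passed the threshold, and none of these concerned Sparc or Comp.

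**Figure D1:**
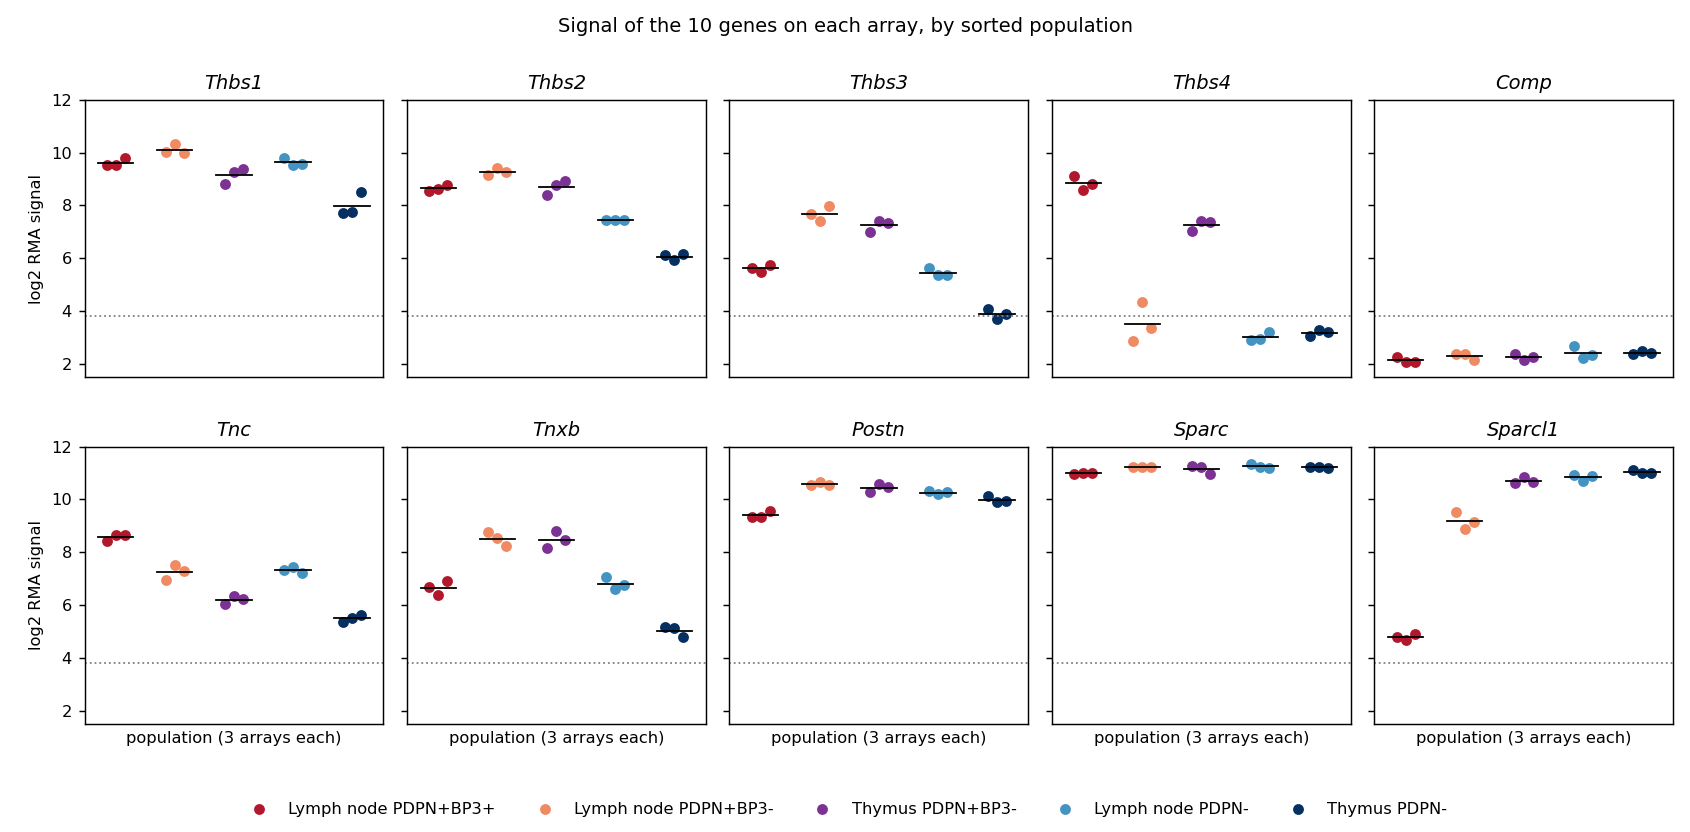
Log2 RMA signal (y axis) of the 10 matricellular genes in the 5 populations (x axis), with 1 point per array, a black bar at each mean of 3 arrays and a dotted line at the table's median of 3.8. Thbs4 reached a mean of 8.83 in PDPN+BP3+ cells of lymph nodes and 7.28 in thymus PDPN+BP3- cells and stayed near the dotted line in the other populations, while the Sparcl1 mean was 4.79 in the nodal BP3+ cells and at least 9.18 elsewhere.

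Thbs4 encodes a pentameric thrombospondin of tendon, muscle and nervous tissue matrix. It read 9.11, 8.59 and 8.80 in the 3 lymph node PDPN+BP3+ arrays, against 2.87, 4.33 and 3.36 in lymph node PDPN+BP3- arrays. It read 7.02, 7.43 and 7.38 in thymus PDPN+BP3- arrays, 2.90, 2.94 and 3.22 in lymph node PDPN- arrays, and 3.05, 3.30 and 3.20 in thymus PDPN- arrays. The order was therefore lymph node PDPN+BP3+, then thymus PDPN+BP3-, then the other populations, whose arrays overlapped and whose means of 3.02 to 3.52 lay below the table's median. Differences against them are differences in signal, not measured ratios of transcripts. Replicate 2 of lymph node PDPN+BP3- cells stood above its partners, and the range of 1.46 in that population was the widest of any gene of the group. Bst1 on the same 3 arrays read 3.80, 3.03 and 3.06, none above the table's median. Whether BP3+ cells had a part in these Thbs4 values was not tested. The mean of 8 tendon and cartilage markers stayed below the table's median in all populations, at 2.82 to 2.91 in lymph node PDPN+BP3+ arrays and 2.67 to 3.36 elsewhere, though 1 or 2 of the 8 lay above it in each. Tnmd, a tendon marker, averaged 1.90 in lymph node PDPN+BP3+ cells against 4.70 in PDPN+BP3- cells of the same nodes. It was the only 1 of the 8 markers to pass the threshold between these subsets, where 1 was lower and 0 were higher (median -0.04). The part of tendon or cartilage cells in the Thbs4 values was not tested.

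Thbs3, a pentameric thrombospondin known from cartilage and bone, read 5.65, 5.49 and 5.75 in lymph node PDPN+BP3+ arrays, against 7.66, 7.40 and 7.98 in lymph node PDPN+BP3- arrays. In thymus PDPN+BP3- arrays it read 7.0, 7.41 and 7.33, in lymph node PDPN- arrays 5.65, 5.36 and 5.37, and in thymus PDPN- arrays 4.09, 3.71 and 3.91. Thbs3 was thus high in the PDPN+BP3- cells of both organs, which overlapped, intermediate in the BP3+ and PDPN- cells of lymph nodes, which overlapped too, and lowest in thymus PDPN- cells. Thbs3 and Thbs4, both pentameric family members, had opposite orders between the PDPN+ subsets of the lymph node.

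Thbs2, a trimeric thrombospondin that inhibits vessel growth and regulates collagen assembly, read 8.56, 8.61 and 8.77 in lymph node PDPN+BP3+ arrays, 9.17, 9.41 and 9.26 in lymph node PDPN+BP3- arrays, and 8.40, 8.79 and 8.93 in thymus PDPN+BP3- arrays. The PDPN- arrays were lower, at 7.44, 7.44 and 7.46 in lymph nodes and 6.12, 5.92 and 6.15 in thymus. No PDPN- array of either organ reached a PDPN+ array, and the lowest neighbours in this order, lymph node and thymus PDPN- cells, did not overlap.

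Thbs1, the other trimeric family member and an activator of latent TGF-β, read 9.55, 9.52 and 9.81 in lymph node PDPN+BP3+ arrays, 10.04, 10.33 and 9.98 in lymph node PDPN+BP3- arrays and 8.83, 9.28 and 9.38 in thymus PDPN+BP3- arrays. It read 9.79, 9.55 and 9.56 in lymph node PDPN- arrays, against 7.70, 7.75 and 8.51 in thymus PDPN- arrays. Every lymph node array lay above every thymus array. Thbs1 is known to respond quickly to serum, and the mean of 8 immediate early genes was not level either: 9.68 to 9.85 in lymph node PDPN+BP3+ arrays, 10.20 to 10.35 in lymph node PDPN+BP3- arrays, 9.44 to 9.84 in thymus PDPN+BP3- arrays, 10.19 to 10.36 in lymph node PDPN- arrays and 9.99 to 10.17 in thymus PDPN- arrays. Platelets store much thrombospondin-1, and the mean of 5 platelet genes was 3.18 to 3.32 in lymph node PDPN+BP3+ arrays and 2.70 to 3.26 elsewhere, with at most 1 of the 5 above the table's median. That 1 was Pf4, which was not level. It averaged 6.03 in lymph node PDPN+BP3+, 4.69 in lymph node PDPN+BP3- and 5.78 in thymus PDPN+BP3- cells. In PDPN- cells Pf4 averaged 3.99 in lymph node and 3.79 in thymus. The part of either list in the Thbs1 values was not tested.

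Comp, the cartilage oligomeric matrix protein, lay between 2.07 and 2.68 on all 15 arrays, below the table's median on each. Its group means ran from 2.14 to 2.42, and neighbours in their order overlapped except thymus PDPN- cells, whose lowest array of 2.37 lay just above the highest lymph node PDPN+BP3- array of 2.36.

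Tnc, a large hexameric tenascin found in developing and remodelling stroma and in lymphoid reticular fibres, read 8.41, 8.64 and 8.66 in lymph node PDPN+BP3+ arrays, against 6.96, 7.51 and 7.29 in lymph node PDPN+BP3- arrays. It read 6.04, 6.33 and 6.22 in thymus PDPN+BP3- arrays, 7.34, 7.45 and 7.20 in lymph node PDPN- arrays and 5.36, 5.50 and 5.62 in thymus PDPN- arrays. BP3+ cells stood apart at the top, the other lymph node populations overlapped in the middle, and both thymus populations lay below them without overlapping each other.

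Tnxb, the tenascin that supports collagen fibrils in skin and other connective tissue, read 6.67, 6.39 and 6.92 in lymph node PDPN+BP3+ arrays, against 8.76, 8.53 and 8.24 in lymph node PDPN+BP3- arrays. Thymus PDPN+BP3- arrays read 8.17, 8.80 and 8.45, lymph node PDPN- arrays 7.05, 6.61 and 6.75, and thymus PDPN- arrays 5.16, 5.13 and 4.80. The overlaps were those of Thbs3: the PDPN+BP3- cells of both organs overlapped at the top, the BP3+ and PDPN- lymph node cells overlapped below them, and thymus PDPN- cells were lowest. Over the 5 group means, each centred on its gene's own mean, Thbs3 and Tnxb were 0.175 log2 units apart (root mean square), nearer than any other pair that included a gene spanning at least 2. Tnxb overlaps the pseudogene Cyp21a2-ps and Gm24389 in the annotation, and Thbs3, Comp, Tnc, Postn and Sparcl1 each overlap another annotated gene; how the probes divide between them was not tested.

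Postn, a fasciclin-domain protein that takes part in collagen crosslinking, read 9.34, 9.35 and 9.55 in lymph node PDPN+BP3+ arrays, against 10.53, 10.67 and 10.55 in lymph node PDPN+BP3- arrays. Its arrays ran from 10.29 to 10.58 in thymus PDPN+BP3- cells, 10.19 to 10.30 in lymph node PDPN- cells and 9.90 to 10.11 in thymus PDPN- cells. Lymph node PDPN+BP3+ cells were lowest, with no array reaching another population.

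Sparcl1, also called hevin, is a SPARC relative known from vessels, brain and muscle. It read 4.78, 4.67 and 4.92 in lymph node PDPN+BP3+ arrays, against 9.52, 8.87 and 9.16 in lymph node PDPN+BP3- arrays. It read 10.61, 10.85 and 10.65 in thymus PDPN+BP3- arrays, 10.92, 10.68 and 10.90 in lymph node PDPN- arrays and 11.10, 10.99 and 10.99 in thymus PDPN- arrays. The gap below the lowest other array was wider than any spread within a population. Sparc itself, a collagen-binding glycoprotein made by most mesenchymal cells, lay between 10.96 and 11.34 on all 15 arrays, and all neighbours in its order overlapped.

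The comparison of PDPN+BP3+ with PDPN+BP3- cells asks what BP3 separates within lymph node fibroblasts. Thbs4, at 8.83 ± 0.26 against 3.52 ± 0.74 (SD, n = 3 each), was higher by 5.31 ± 0.26 (SE; limma adjusted p = 3.34e-10). Tnc was higher by 1.32 ± 0.14 (limma adjusted p = 3.01e-06). Sparcl1, at 4.79 ± 0.13 against 9.18 ± 0.33 (SD, n = 3 each), fell by 4.39 ± 0.14 (limma adjusted p = 2.48e-12), the largest decrease of the group in this comparison. Thbs3 (-2.05 ± 0.16), Tnxb (-1.85 ± 0.19), Postn (-1.17 ± 0.11) and Thbs2 (-0.63 ± 0.13) were lower as well, with limma adjusted p-values of 7.28e-08 to 0.00216. In all, 2 of the 10 genes were higher and 5 lower, where 16.2% of all genes tested passed the threshold, 8.49% as higher and 7.74% as lower. The arrays did not overlap for 9 of the 10, beside 32.9% of all genes. The group's median difference was -0.56, beside 0.01 over all genes. Thbs1 (-0.49, limma adjusted p = 0.116), Sparc (-0.23) and Comp (-0.15) did not pass. Thbs1 passed when the fit held only these 6 arrays (limma adjusted p = 0.0229). Beside these values, 8 of 8 fibroblast markers (median -1.28), 6 of 8 endothelial genes and 6 of 8 immediate early genes were lower in BP3+ cells, while 5 of 10 pericyte and smooth muscle markers (median 0.65) and 4 of 5 markers of lymphoid reticular stroma (median 1.84) were higher. Their part in the results was not tested.

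Against lymph node PDPN- cells, the BP3+ cells were again higher for Thbs4 and Tnc and again lower for Sparcl1 and Postn. Thbs2 had the opposite direction to that against PDPN+BP3- cells. Thbs4 was higher by 5.81 ± 0.26 (limma adjusted p = 4.95e-11), Tnc by 1.24 ± 0.14 and Thbs2 by 1.20 ± 0.13. Sparcl1 fell by 6.04 ± 0.14 (limma adjusted p = 3.36e-14) and Postn by 0.84 ± 0.11. These 3 higher and 2 lower genes stand beside a share of 27.3% over all genes, 16.1% higher and 11.2% lower. The arrays of 6 did not overlap, beside 39% of all genes. Thbs3 (0.17), Tnxb (-0.14) and Thbs1 (-0.01) did not pass, with limma adjusted p-values of 0.507 to 0.991. Sparc (-0.25) passed under a trended and robust variance prior (limma adjusted p = 0.0229), and Comp (-0.28) passed without lymph node PDPN- replicate 2, at -0.38 (limma adjusted p = 0.0465). Of the marker lists, 9 of 10 pericyte and smooth muscle markers (median -2.20) and 6 of 8 immediate early genes were lower in the BP3+ cells, and 5 of 5 lymphoid stroma markers (median 3.77) were higher, and their part was not tested.

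PDPN+BP3- cells set against PDPN- cells of the lymph node differed in another selection of the genes. Thbs3 was higher by 2.22 ± 0.16, Thbs2 by 1.83 ± 0.13 and Tnxb by 1.71 ± 0.19, with limma adjusted p-values of 1.54e-08 to 2.89e-06. Sparcl1 fell by 1.65 ± 0.14 (limma adjusted p = 1.8e-07). Postn was higher by 0.33 ± 0.11 (limma adjusted p = 0.0377), a call lost when any 1 of the 6 arrays was left out, with differences of 0.28 to 0.35 and adjusted p-values of 0.0534 to 0.141. It was also lost with the replicate number as a block (limma adjusted p = 0.0554), with only these arrays in the fit (0.0563) and after a filter on dim rows (0.0659). So 4 genes were higher and 1 lower, where 23.1% of all genes passed, 13.4% as higher and 9.79% as lower, and 6 had arrays that did not overlap, beside 34.6% of all genes. Thbs4 (0.50 ± 0.26) did not pass, with limma adjusted p = 0.21, but passed without PDPN+BP3- replicate 1, at 0.83 (limma adjusted p = 0.021). Thbs1 (0.48, limma adjusted p = 0.0954) passed with only these arrays in the fit (limma adjusted p = 0.0319). Here 8 of 8 fibroblast markers (median 2.43), 4 of 5 lymphoid stroma markers and 5 of 8 endothelial genes were higher in the PDPN+BP3- cells, and 9 of 10 pericyte and smooth muscle markers (median -2.71) were lower; their part was not tested.

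**Figure D2:**
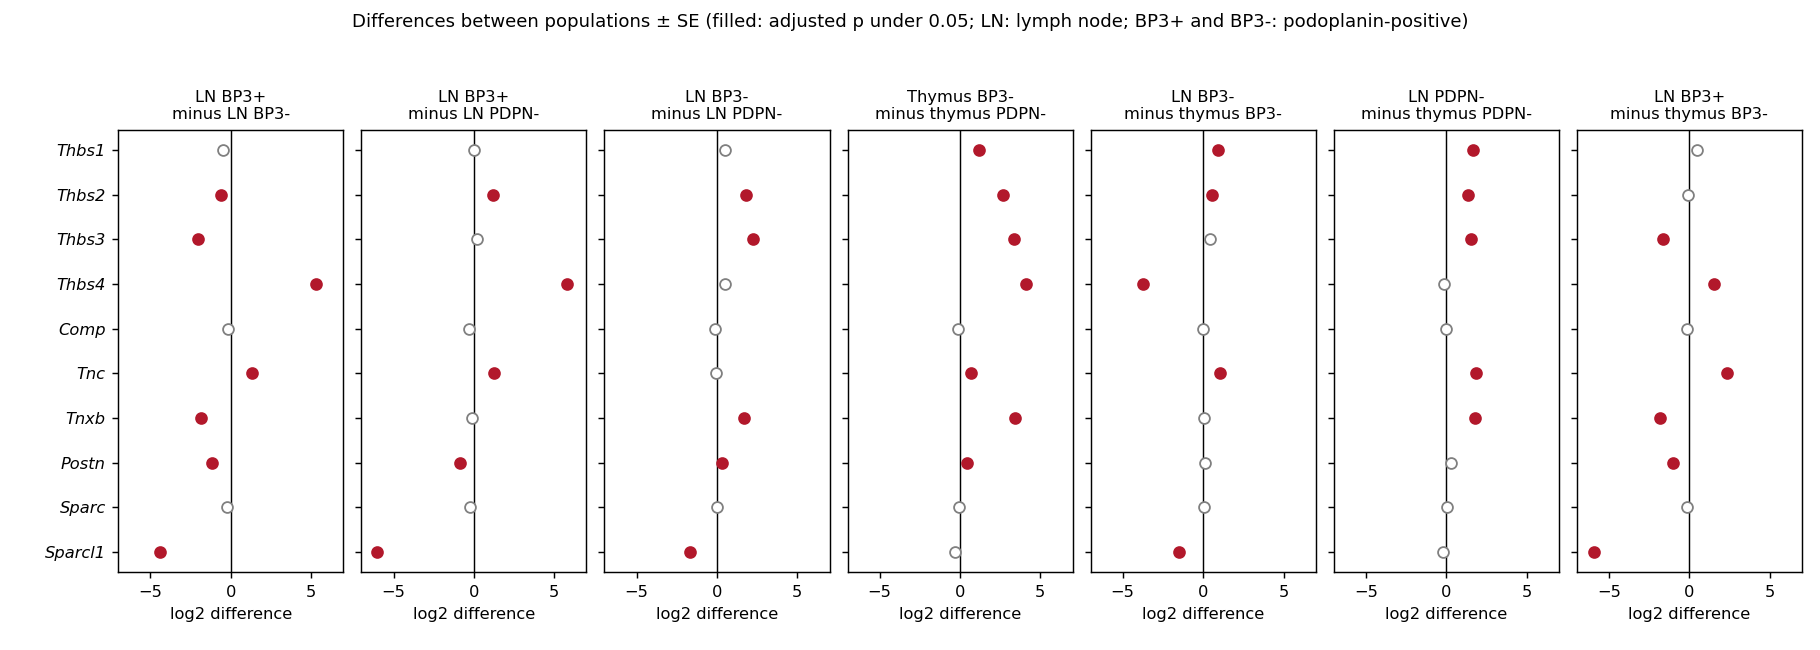
Log2 difference (x axis, top population minus bottom population, with bars of 1 SE that the symbols mostly cover) of each matricellular gene in the 7 pairwise comparisons, and filled symbols for limma adjusted p below 0.05. Thbs4 and Sparcl1 lie farthest from 0 in both comparisons of BP3+ cells within the lymph node, at 5.31 and -4.39 against PDPN+BP3- lymph node cells, while Sparc and Comp are unfilled in every panel.

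In the thymus, PDPN+BP3- cells exceeded PDPN- cells for 7 of the 10 genes and fell below them for 0, where 28.5% of all genes passed, 10.3% as higher and 18.2% as lower. The arrays of 8 did not overlap, beside 38.3% of all genes. Thbs4, at 7.28 ± 0.22 against 3.18 ± 0.13 (SD, n = 3 each), was higher by 4.09 ± 0.26 (limma adjusted p = 2.87e-09). Tnxb was higher by 3.44 ± 0.19, Thbs3 by 3.34 ± 0.16 and Thbs2 by 2.64 ± 0.13, with limma adjusted p-values of 7.2e-11 to 3.79e-10. Thbs1 (1.18 ± 0.20), Tnc (0.70 ± 0.14) and Postn (0.46 ± 0.11) were higher by less, with limma adjusted p-values of 0.000216 to 0.00363. The group's median was 0.94, beside -0.05 over all genes. Sparcl1 (-0.32 ± 0.14), Comp (-0.15) and Sparc (-0.07) did not pass, with limma adjusted p-values of 0.11 to 0.677. Beside the 7 higher genes, 8 of 8 fibroblast markers were higher (median 5.02), while 10 of 10 pericyte and smooth muscle markers (median -3.31), 2 of 6 T lineage, 3 of 7 epithelial and 4 of 8 immediate early genes were lower. Their part was not tested.

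Between organs, the populations gated alike also differed. In PDPN+BP3- cells, lymph node values exceeded thymus values for Tnc by 1.06 ± 0.14, for Thbs1 by 0.95 ± 0.20 and for Thbs2 by 0.57 ± 0.13, with limma adjusted p-values of 4.63e-05 to 0.00531. Lymph node Thbs4 fell by 3.76 ± 0.26 (limma adjusted p = 3.9e-08) and Sparcl1 by 1.52 ± 0.14 (limma adjusted p = 1.15e-06) relative to thymus. These 3 higher and 2 lower genes stand beside 17.1% of all genes passing, 11.8% as higher and 5.29% as lower, and the arrays of 5 did not overlap, beside 29.2%. The Thbs2 call was lost with only these 6 arrays in the fit (limma adjusted p = 0.0521). Thbs3 (0.43, limma adjusted p = 0.0737) passed without lymph node replicate 2, at 0.57 (limma adjusted p = 0.0329), and Tnxb, Postn, Sparc and Comp differed by 0.02 to 0.14 without passing. In the lymph node cells, 7 of 8 immediate early genes, 5 of 8 endothelial genes, 6 of 10 pericyte and smooth muscle markers and 4 of 5 lymphoid stroma markers were higher, and 5 of 6 T lineage and 6 of 7 epithelial genes were lower. Fibroblast markers were divided, with 1 higher and 2 lower of 8. The part of these lists was not tested.

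In PDPN- cells, lymph node values exceeded thymus values for 5 genes and fell below them for 0, where 9.61% of all genes passed, 4.42% as higher and 5.19% as lower. The arrays of 7 did not overlap, beside 24.7% of all genes. Tnc was higher by 1.84 ± 0.14, Tnxb by 1.77 ± 0.19, Thbs1 by 1.65 ± 0.20, Thbs3 by 1.56 ± 0.16 and Thbs2 by 1.38 ± 0.13, with limma adjusted p-values of 2.24e-07 to 2.98e-05. Postn (0.27), Thbs4 (-0.16), Sparcl1 (-0.19), Sparc (0.04) and Comp (0.00) did not pass, with limma adjusted p-values of 0.142 to 1. Thus Tnc, Thbs1 and Thbs2 were higher in the lymph node in both gates, while Thbs4 and Sparcl1 were lower there only in the PDPN+BP3- gate, and that difference between gates is the interaction described further on. Moving with the 5 genes, 6 of 8 fibroblast markers were higher in lymph node PDPN- cells (median 1.02, with 0 lower), and 5 of 6 T lineage and 6 of 7 epithelial genes were lower; their part was not tested.

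Lymph node PDPN+BP3+ cells had no BP3+ counterpart in the thymus and were set against thymus PDPN+BP3- cells. Tnc was higher by 2.37 ± 0.14 (limma adjusted p = 1.67e-09) and Thbs4 by 1.56 ± 0.26 (limma adjusted p = 0.000245). Sparcl1 fell by 5.91 ± 0.14, Tnxb by 1.81 ± 0.19, Thbs3 by 1.62 ± 0.16 and Postn by 1.03 ± 0.11, with limma adjusted p-values of 5.73e-14 to 1.54e-06. These 2 higher and 4 lower genes stand beside 28.6% of all genes passing, 19.4% as higher and 9.14% as lower, and the arrays of 7 did not overlap, beside 38.8%. Thbs1 (0.46) and Thbs2 (-0.06) did not pass, with limma adjusted p-values of 0.0934 and 0.791. Fibroblast markers (8 of 8, median -1.05), T lineage (5 of 6) and epithelial genes (5 of 7) were lower in the BP3+ cells, and 7 of 10 pericyte and smooth muscle and 5 of 5 lymphoid stroma markers were higher; their part was not tested. BP3 and organ both differ in this comparison and cannot be told apart.

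Whether PDPN+BP3- and PDPN- cells differed to the same extent in both organs was tested as an interaction, the lymph node difference minus the thymus difference. Of the 10 genes, 6 passed and all 6 were lower in the lymph node term, where 12.7% of all genes passed, 8.67% as higher and 4.05% as lower. Thbs4 gave -3.59 ± 0.37 (limma adjusted p = 6.5e-06): PDPN+BP3- cells were above PDPN- cells by 0.50 in lymph node and by 4.09 in thymus. For Tnxb the interaction was -1.74 ± 0.26, from differences of 1.71 in lymph node and 3.44 in thymus. Thbs3 (-1.12 ± 0.22), Thbs2 (-0.81 ± 0.18) and Tnc (-0.78 ± 0.20) had smaller terms, with limma adjusted p-values of 0.0029 to 0.0155. Sparcl1 (-1.33 ± 0.20, limma adjusted p = 0.000315) was the exception in kind, because PDPN+BP3- cells were below PDPN- cells by 1.65 on the log2 scale in lymph node (-1.65) and did not pass in thymus (-0.32). Thbs1 gave -0.69 ± 0.28 (limma adjusted p = 0.124), and passed without thymus PDPN- replicate 3, at -0.96 (limma adjusted p = 0.0125). The fibroblast markers had the same direction, with 7 of 8 lower and 0 higher (median -1.55), and 7 of 10 pericyte and smooth muscle, 4 of 8 endothelial and 3 of 5 lymphoid stroma markers were higher; their part in the 6 interaction terms was not tested.

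**Figure D3:**
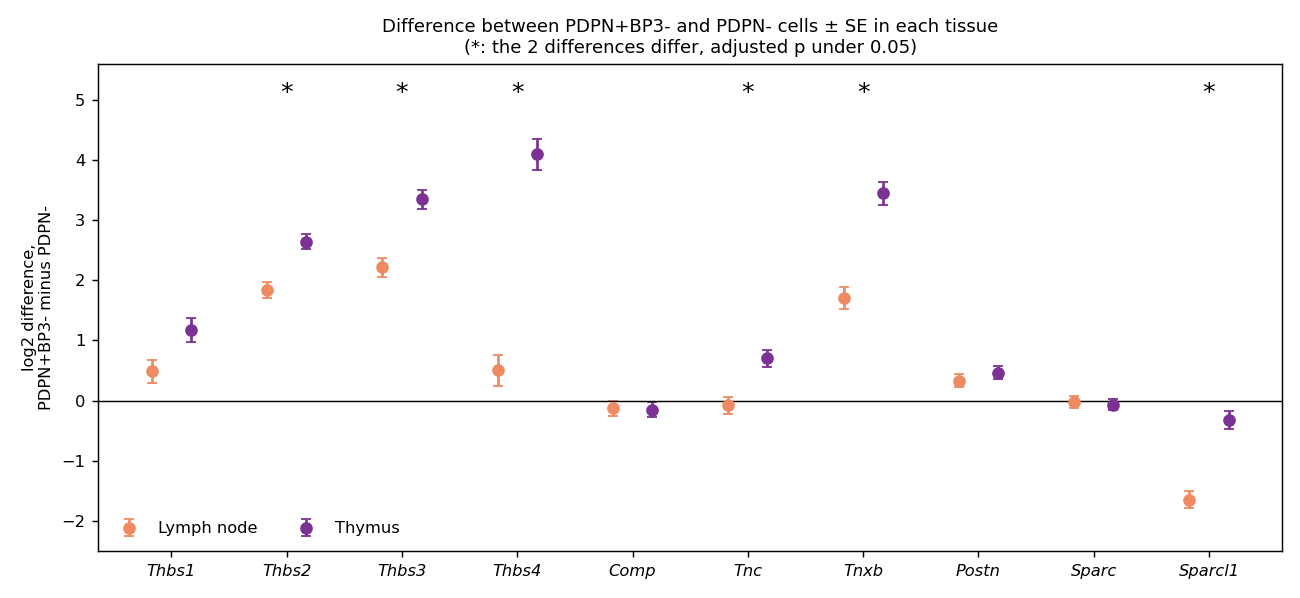
Log2 difference of PDPN+BP3- minus PDPN- cells (y axis) for each of the 10 matricellular genes (x axis), with bars of 1 SE. Each gene has 1 point for lymph node and 1 for thymus. Asterisks mark genes that passed the interaction test (limma adjusted p below 0.05). Thbs4 has its points farthest apart, at 0.50 in lymph node and 4.09 in thymus.

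Relatives of these genes were read from lists of the same families. Tnn, tenascin-W of bone and tumour stroma, averaged 5.67 in BP3+ against 2.75 in PDPN+BP3- cells of lymph nodes, a difference of 2.91 ± 0.17 (limma adjusted p = 2.97e-09), and 2.81 to 3.00 in the remaining populations. Tnn thus joined Tnc at the top of the BP3+ cells, while the other listed tenascin passed in 0 of the 7 comparisons. Among 6 other SPARC family genes, 1 was higher and 3 were lower in BP3+ than in PDPN+BP3- lymph node cells, where 8.49% of all genes were higher and 7.74% lower. Smoc2, a calcium-binding matrix protein, averaged 3.11 in BP3+ cells against 5.67 in PDPN+BP3- lymph node cells, a difference of -2.57 ± 0.20 (limma adjusted p = 7.93e-08). In thymus, Smoc2 averaged 7.66 in PDPN+BP3- cells against 2.49 in PDPN- cells, a difference of 5.17 ± 0.20 (limma adjusted p = 6.59e-12). Spock2, a testican proteoglycan, also fell by 1.32 ± 0.27 in BP3+ cells relative to PDPN+BP3- lymph node cells (limma adjusted p = 0.00215).

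The CCN family, growth factor-binding matricellular proteins, was mixed, with 2 of 6 genes higher and 1 lower in BP3+ than in PDPN+BP3- lymph node cells, read against the same shares. Ccn4, a WNT-induced member, was higher by 1.29 ± 0.15 and Ccn5 by 1.63 ± 0.20, and Ccn2, a mediator of matrix production, fell by 0.88 ± 0.20, with limma adjusted p-values of 6.91e-06 to 0.00553. Ccn3 was higher in PDPN+BP3- than in PDPN- thymus cells by 3.81 ± 0.27 (limma adjusted p = 1.02e-08), and 4 of the 6 CCN genes passed the interaction test as lower, beside 4.05% of all genes. Of the interaction calls over all genes, 31.8% were lower, and 58.5% after cyclic loess normalisation. Tgfbi, a fasciclin-domain relative of Postn, averaged 11.01, 10.44 and 9.06 in the lymph node PDPN+BP3+, lymph node PDPN+BP3- and thymus PDPN+BP3- cells, against 4.81 and 3.59 in the lymph node and thymus PDPN- cells. Its order set all PDPN+ above all PDPN- populations, as that of Thbs2 did.

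Of 16 receptors for matricellular proteins, 2 were higher and 8 lower in BP3+ than in PDPN+BP3- lymph node cells, beside 8.49% higher and 7.74% lower over all genes. Itga8, the integrin chain that binds tenascin and nephronectin, averaged 2.24 in BP3+ cells against 5.37 in PDPN+BP3- cells, a difference of -3.12 ± 0.20 (limma adjusted p = 6.93e-09). Itgb3, a chain of the αvβ3 receptor, fell by 1.48 ± 0.15 (limma adjusted p = 1.73e-06), and Cacna2d1, a thrombospondin-binding calcium channel subunit, fell by 0.98 (limma adjusted p = 6.42e-05). In thymus, 8 of the 16 were higher and 4 lower in PDPN+BP3- than in PDPN- cells (median 0.30), beside 10.3% higher and 18.2% lower over all genes. Cd36, a thrombospondin receptor, divided by gate: it averaged 2.83 in PDPN+BP3- against 6.44 in PDPN- thymus cells, a difference of -3.60 ± 0.30 (limma adjusted p = 8.19e-08). Itga4, a chain of the VCAM-1 receptor, was likewise lower in PDPN+BP3- thymus cells by a difference of -3.45 ± 0.12, whereas Itga9, a tenascin-C receptor chain, was higher by 2.37 ± 0.17, both with limma adjusted p-values of 2e-12 to 1.44e-08. Itga5 was higher there by 1.21 ± 0.12 (limma adjusted p = 4.26e-07). In lymph node, the same subset difference was -3.70 for Cd36 and -3.36 for Itga4. There, 5 of the 16 receptors were higher and 5 lower, beside 13.4% higher and 9.79% lower over all genes. Cd36 and Itga4 are also made by endothelium, platelets or leukocytes, whose part was not tested.

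**Figure D4:**
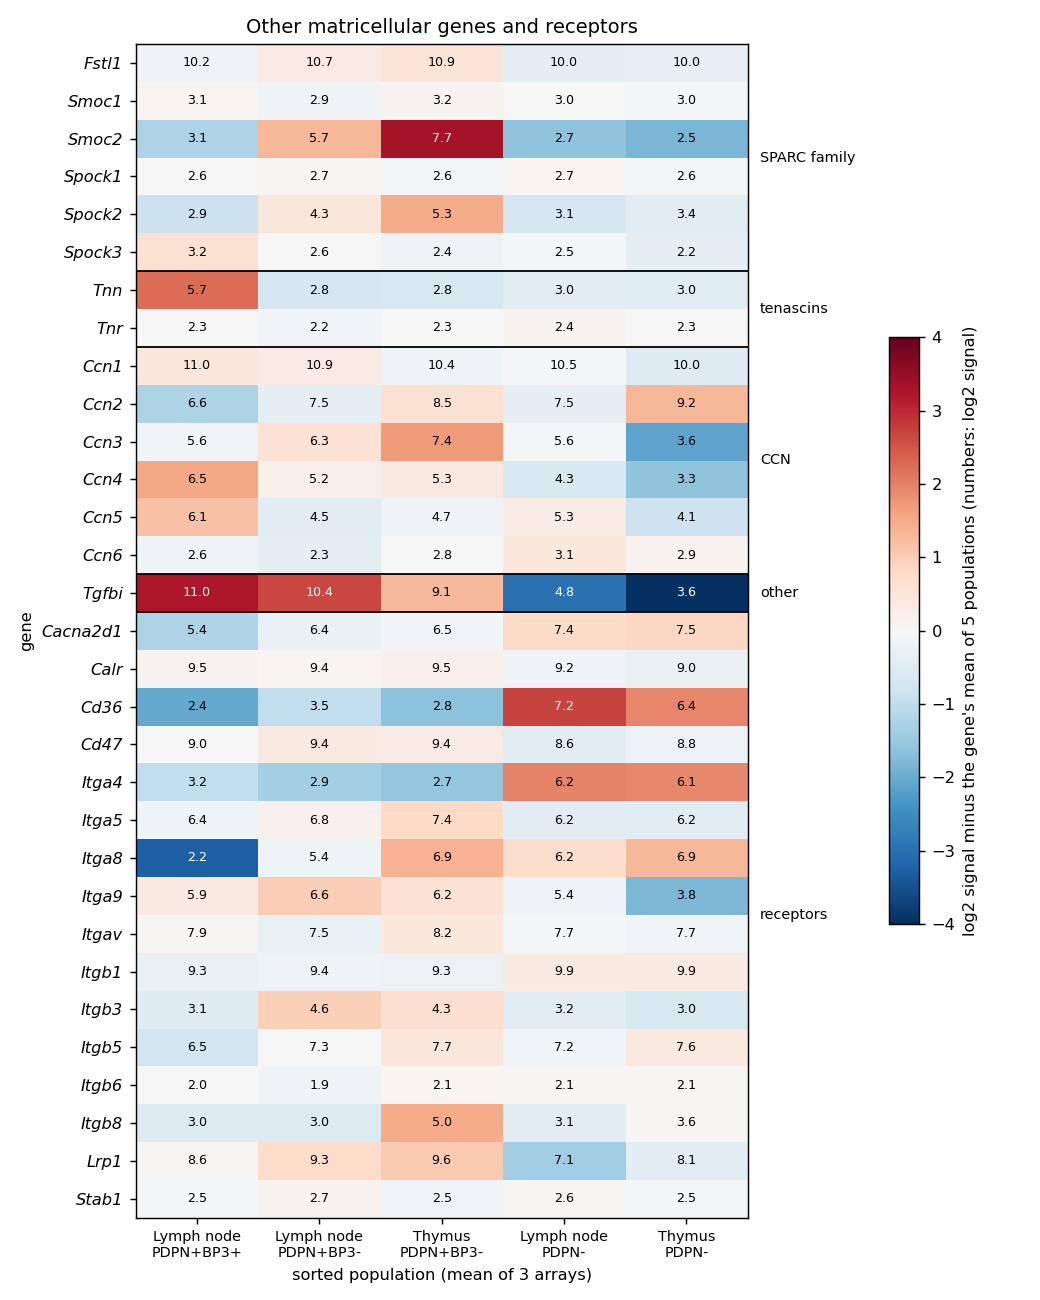
Group means of log2 RMA signal for listed relatives and receptors of the matricellular genes (rows) in the 5 populations (columns), each row shown as its difference from its own mean. Tnn has its highest group mean, 5.67, and Itga8 its lowest, 2.24, in the lymph node PDPN+BP3+ column.

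For each gene whose group means spanned at least 2 log2 units, the nearest other genes were sought over the 5 centred group means, which share arrays and normalisation. The nearest to Thbs2 was Gata6, a zinc-finger transcription factor, at a root mean square distance of 0.174, and the nearest to Tnc was Unc5c, a netrin receptor, at 0.187. Trim30d was nearest to both Tnxb (0.152) and Thbs3 (0.242), and Id2, an inhibitor of bHLH factors, to Thbs1 (0.226). The genes with the widest spans had larger distances, which are not scaled to the span: Ebf2, a transcription factor, was 0.567 from Sparcl1, and Nfasc, an adhesion molecule of neurons, was 0.903 from Thbs4. Nfasc averaged 7.03 in the BP3+ and 3.11 in the PDPN+BP3- cells of lymph nodes, 4.94 in thymus PDPN+BP3- cells, and 2.90 in the PDPN- cells of both organs. The next nearest were Scpep1 and Mmp16 for Thbs2, Ugcg and Emx2 for Tnc, Tnfaip6 and Col1a1 for Tnxb, Thbd and Vldlr for Thbs3, Nfil3 and Casp12 for Thbs1, Cpe and Itga8 for Sparcl1, and Tmem132c and Ecrg4 for Thbs4.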

How the data were processed

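The deposited values were log2 signals made by RMA in Affymetrix Expression Console, per the submitters' processing notes; the sources used here give no versions, and the log base was read from the value range of 1.07 to 12.07. RMA fits all 15 arrays together and forces a common distribution, which can compress differences in low signals. Of 24758 transcript clusters, 20844 had 1 symbol, 1735 several and 2179 none; the brightest cluster of each of 18718 symbols was tested. limma 3.58.1 in R 4.3.3 fitted 1 mean for each of 5 groups over all arrays, with 10 residual and 5.50 prior degrees of freedom. The p-values measure the spread between pools. A filter on dim rows, cyclic loess, a trended robust prior, only the arrays compared, a replicate block and leaving out each array were tried as alternatives. The method was tested on simulated data. The 3 arrays per group limit the precision, and an array has no read depth.

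The members and lists were chosen with earlier results of these data known. All 10 members are named; from each other list, up to 4 genes per comparison with the smallest adjusted p-values past the threshold, and the sort antigens. Near genes are the 3 with the smallest distance per member. Listed genes with no row of their own (such as Spp1 and Ccl21a) were not used here.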

Additional observations from a re-analysis of the deposited data

Results flagged for a closer look

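For 6 genes, the difference of PDPN+BP3- minus PDPN- cells was not the same in lymph node and thymus by the interaction test of limma. The lymph node difference minus the thymus difference was -3.59 for Thbs4, -1.74 for Tnxb, -1.33 for Sparcl1, -1.12 for Thbs3, -0.81 for Thbs2 and -0.78 for Tnc on the log2 scale. Each was negative. For Thbs4 the thymus difference was 4.09, and the lymph node difference of 0.50 did not pass. The latter passed without lymph node PDPN+BP3- replicate 1, at 0.83 (limma adjusted p = 0.021). Both of its lymph node means, 3.52 and 3.02, lay below the table's median. For Sparcl1 the lymph node difference was -1.65, and the thymus difference of -0.32 did not pass. Of 8 fibroblast markers, 7 also had negative interaction terms past the threshold (median -1.55 over the 8), and of 10 pericyte and smooth muscle markers 7 had positive ones (median 1.20 over the 10). T lineage and epithelial lists were higher on the thymus arrays. The part of these lists was not tested, and pool size and tissue cannot be told apart. The test for 1 outlying array within a group was not applied, because it needs at least 4 arrays.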

How the results depend on the processing

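Of 1012 values of the 10 genes recomputed under alternatives, 965 kept direction and side of the threshold, 10 lost a call, 7 gained one, 0 calls changed sign, and 30 values that passed in neither setting changed sign. The filter on dim rows removed Comp. The number of the 10 genes past the threshold stayed within 1 of the reported number in each of the 7 comparisons and the interaction, for the alternatives run. The lost calls were Postn between lymph node PDPN+BP3- and PDPN- cells and Thbs2 between lymph node and thymus PDPN+BP3- cells. Replicate numbers were not taken to pair the arrays, because in 0 of 10 pairs of populations did every same-numbered pair correlate above 0.1: the correlations ran from -0.174 to 0.288, and in 21 of 60 comparisons of an array with another population it was nearest to its own number. For the PDPN+ subsets of the lymph node, 6 of 6 were, at correlations of 0.0639 to 0.154, a hint from the data and not from the design. With the replicate block, 7, 5, 4, 7, 5, 5 and 6 of the 10 genes passed in the 7 comparisons as ordered above, and 6 in the interaction. Cyclic loess moved the share of lower calls over all genes to 45% against 64% for thymus PDPN+BP3- minus PDPN-, 54.3% against 30.9% for lymph node minus thymus PDPN+BP3-, 52.6% against 32% for lymph node PDPN+BP3+ minus thymus PDPN+BP3-, and 58.5% against 31.8% for the interaction. Of the 10 genes, Tnxb between the PDPN+BP3- cells of both organs then had -0.18 against 0.04, past the threshold in neither.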
